A study of Mus musculus with 12 samples.

Results

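Genes of glycolysis, of the fate of pyruvate and of the response to low oxygen were followed in mouse induced pluripotent stem (iPS) cells of 4 lines. The set lists 36 genes: glucose transporters, the enzymes of glycolysis, lactate dehydrogenases and lactate transporters, the E1 alpha subunit of pyruvate dehydrogenase with its kinases, the PFKFB enzymes, and 5 genes induced by hypoxia. A gene was measured by the probe sets that the array annotation assigns to it alone, with Pkm also taken as Pkm2, and where there were several by the brightest of them. That left 32 of the 36 genes, out of 19938 genes measured in all. Gpi1, Eno1 and Pfkfb1 had no probe set that names them alone, all 25 probe sets that name Gapdh name other genes too, and these 4 are not analysed here. Of the 32, 26 had 1 probe set and 6 had several, 3 lie on the X chromosome and 29 on autosomes. All but Car9 lay above the 40th percentile of probe set means.

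Glycolysis splits glucose into pyruvate in the cytosol. Pyruvate is then either reduced to lactate, which leaves the cell through monocarboxylate transporters, or enters the mitochondrion, where pyruvate dehydrogenase turns it into acetyl-CoA unless a pyruvate dehydrogenase kinase has switched that enzyme off. When oxygen is low, prolyl hydroxylases no longer mark the hypoxia-inducible factors (HIF) for destruction, and HIF then raises the transcription of many of the genes listed here, often through a short element with the core ACGTG or GCGTG. Mouse pluripotent stem cells and reprogrammed cells are known for a high rate of glycolysis.

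LiPS-45 and LiPS-57 were competent in tetraploid complementation, per the labels, whereas LiPS-47 and LiPS-50 were not. All 4 had been made with 3 factors from embryonic fibroblasts of C57BL/6J mice and were grown in embryonic stem cell medium, so the fibroblast origin, the strain and the factors are shared by every group. In that assay the host embryo is tetraploid, so that a fetus can form only from the cells put into it. Each line had 3 cultures, given as biological repeats, with 1 Affymetrix array each, 12 arrays in all. Competence is a property of a line, so it rests on 2 lines against 2, whereas a p-value between lines reflects how much cultures of one line vary. Values are log2(intensity + 1), on which folds of dim genes are understated, and a level is not compared between genes because probe sets differ in brightness.

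Defining markers of pluripotent cells were bright in every line: the lowest culture had 11.53 for Pou5f1, 10.38 for Sox2 and 10.39 for Nanog. Of 18 measured markers of these cells, 8, 9 and 7 differed from LiPS-50 in LiPS-45, LiPS-57 and LiPS-47 (44.4%, 50% and 38.9%). They went in both directions: 5, 6 and 3 were lower in LiPS-50, and 3, 3 and 4 were higher. LiPS-50 stood apart over the whole array. Of 28939 probe sets tested, 16.5%, 15.6% and 15.8% set LiPS-45, LiPS-57 and LiPS-47 apart from LiPS-50, while the pairs among the other 3 lines differed in at most 0.266% (limma, adjusted p under 0.05). Markers of fibroblasts and feeder cells moved with this: of 23 measured markers, 22 were lower in LiPS-45 than in LiPS-50, as were 21 for LiPS-57 and 22 for LiPS-47, with median differences of -0.59, -0.62 and -0.75. Their summed intensity ran between 23998 and 28164 in the cultures of LiPS-45 and between 24211 and 25909 for LiPS-57. For LiPS-47 it ran between 20709 and 25384, against between 32761 and 36678 in LiPS-50. Col1a1, a fibrillar collagen, differed from LiPS-50 by -0.58, -0.62 and -0.73 in LiPS-45, LiPS-57 and LiPS-47, and Thy1, a surface protein of fibroblasts, by -0.71, -0.67 and -0.97. The part of these cells in the results below was not tested. In RNA from whole cultures, fewer cells of a type and less RNA per cell cannot be told apart.

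LiPS-50 was the line that differed in these genes. Over the 4 lines, 17 of the 32 members differed (53.1%, F-test of limma, adjusted p under 0.05), against 14.9% of all probe sets and 24.1% of the 12953 genes above the 40th percentile. LiPS-45 and LiPS-50 differed in 15 members (46.9%, against 16.5% of all probe sets and 26.6% of the brighter genes), of which 10 were higher and 5 lower in LiPS-45 (31.2% and 15.6%, against 8.3% and 8.18% of all probe sets). LiPS-57 and LiPS-50 differed in 11 (34.4%, against 15.6% and 25.8%), 7 higher and 4 lower in LiPS-57 (21.9% and 12.5%, against 7.48% and 8.16%). LiPS-47 and LiPS-50 differed in 20 (62.5%, against 15.8% and 26.1%), 15 higher and 5 lower in LiPS-47 (46.9% and 15.6%, against 7.31% and 8.48%). The median difference over the 32 members was 0.10, 0.06 and 0.15 in these comparisons, and -0.00024, 0.00019 and 0.014 over all probe sets. These 3 comparisons share the LiPS-50 arrays, so they are not independent of each other.

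**Figure D1:**
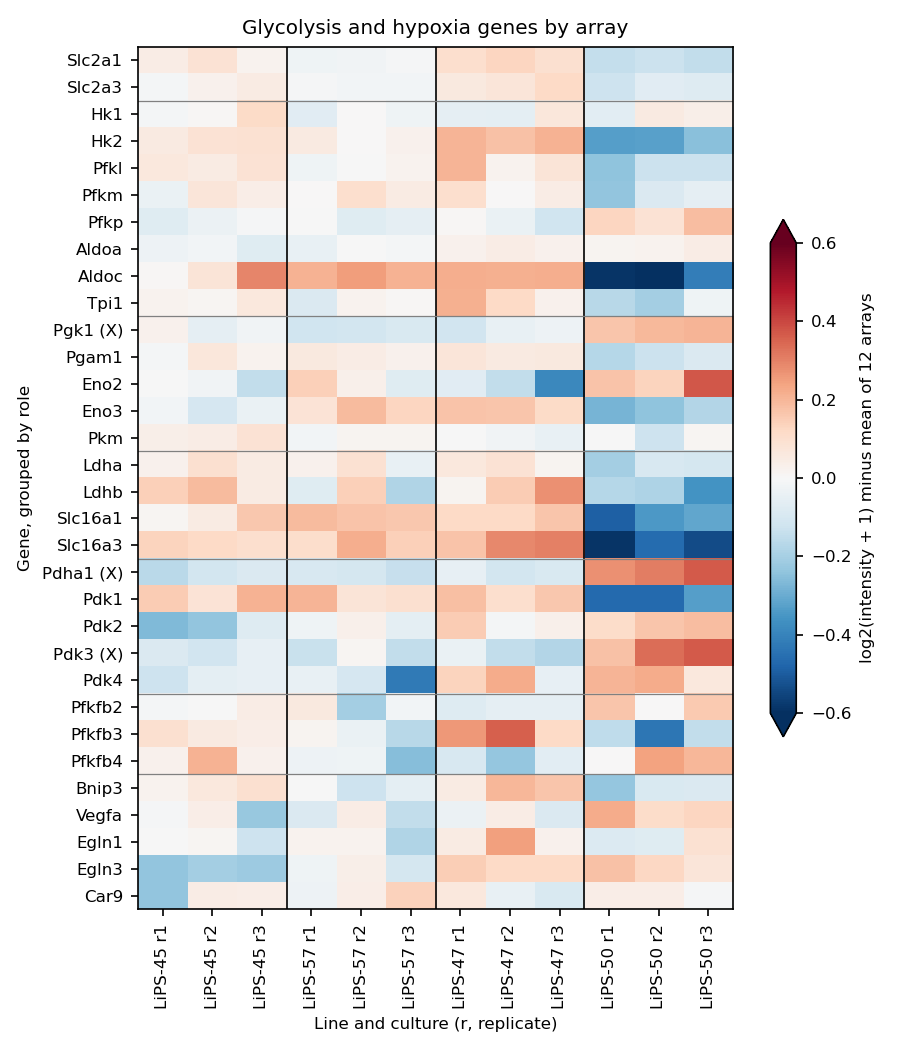
Level of each of the 32 members (rows, grouped by role, X-linked genes marked X) on each of the 12 arrays (columns, by line and replicate), as log2(intensity + 1) minus the gene's mean over the 12 arrays, with the colour scale in log2 units. The columns of LiPS-50 at the right stand apart, low for most rows from glucose uptake to the lactate transporters, high for Pgk1, Pdha1 and Pdk3.

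In all 3 comparisons 8 members differed from LiPS-50 in the same direction (25%, against 10.4% of all probe sets and 17.9% of the brighter genes). Lower in LiPS-50 were 5 of them (15.6%, against 4.57% and 8.16%): the lactate transporters Slc16a3 and Slc16a1, the kinase Pdk1, the aldolase Aldoc and the hexokinase Hk2. Higher in LiPS-50 were 3 (9.38%, against 5.86% and 9.75%): Pdha1, Pdk3 and Pgk1, the 3 X-linked members. Another 7 members differed in 2 of the comparisons, 8 in 1, and 9 in none. Without regard to size, the 3 LiPS-50 arrays lay below all 9 others for 12 members (37.5%, against 9.54% of probe sets and 16% of the brighter genes) and above all 9 others for 5 (15.6%, against 8.81% and 14.6%). With each array centred on its median, 10 members differed in all 3 comparisons, 8 of them lower and 2 higher in LiPS-50.

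**Figure D2:**
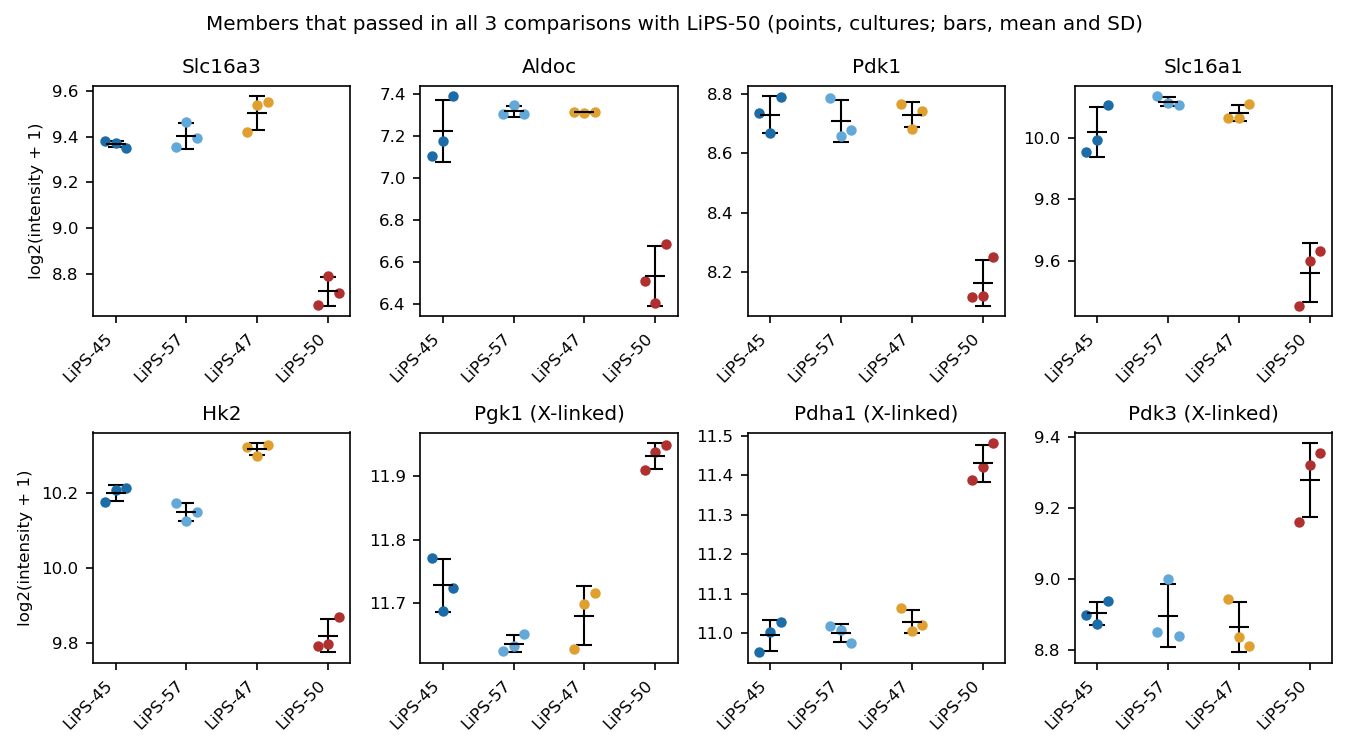
log2(intensity + 1) of the 8 members that differed from LiPS-50 in all 3 comparisons, 1 panel per gene, with lines along the x axis (points, the 3 cultures; bars, mean and SD). In each panel the 3 LiPS-50 points lie clear of the 9 others, below them for Slc16a3, Aldoc, Pdk1, Slc16a1 and Hk2 and above them for Pdha1, Pdk3 and Pgk1.

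The 5 members lower in LiPS-50 were picked by their direction, so that they share it is no finding. A part of HIF in their differences was not tested. The stretches before their transcription starts are shown because HIF is known to act through a short motif. Each is the 250 bases before the first start listed by RefSeq on GRCm38.p6, written 5′ to 3′ on the strand of the gene, in lower case, with ACGTG and GCGTG in capitals on either strand (CACGT and CACGC where they lie on the other strand). Pgk1 is given beside them as a member that was higher in LiPS-50. The genes have these sequences:
Slc16a3, chr11:120948817-120949066, plus strand: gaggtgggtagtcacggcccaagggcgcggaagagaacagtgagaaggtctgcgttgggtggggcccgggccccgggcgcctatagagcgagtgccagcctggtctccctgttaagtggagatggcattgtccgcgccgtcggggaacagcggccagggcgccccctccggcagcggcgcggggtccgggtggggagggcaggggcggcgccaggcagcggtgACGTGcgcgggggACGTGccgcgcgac
Slc16a1, chr3:104638414-104638663, plus strand: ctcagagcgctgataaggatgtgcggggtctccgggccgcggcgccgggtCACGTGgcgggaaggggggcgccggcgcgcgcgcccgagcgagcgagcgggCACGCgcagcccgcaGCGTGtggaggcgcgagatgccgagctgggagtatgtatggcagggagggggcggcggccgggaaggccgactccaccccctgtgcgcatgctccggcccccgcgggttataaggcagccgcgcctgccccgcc
Pdk1, chr2:71872974-71873223, plus strand: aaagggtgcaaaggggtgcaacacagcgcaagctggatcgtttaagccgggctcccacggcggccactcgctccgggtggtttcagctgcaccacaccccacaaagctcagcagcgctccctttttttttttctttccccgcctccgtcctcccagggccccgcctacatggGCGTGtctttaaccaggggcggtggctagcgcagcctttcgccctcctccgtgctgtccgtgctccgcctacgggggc
Aldoc, chr11:78322823-78323072, plus strand: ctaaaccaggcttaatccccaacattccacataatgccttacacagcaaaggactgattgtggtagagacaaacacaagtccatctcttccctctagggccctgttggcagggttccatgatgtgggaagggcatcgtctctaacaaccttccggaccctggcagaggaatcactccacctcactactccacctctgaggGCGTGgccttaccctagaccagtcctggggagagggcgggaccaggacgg
Hk2, chr6:82774455-82774704, minus strand: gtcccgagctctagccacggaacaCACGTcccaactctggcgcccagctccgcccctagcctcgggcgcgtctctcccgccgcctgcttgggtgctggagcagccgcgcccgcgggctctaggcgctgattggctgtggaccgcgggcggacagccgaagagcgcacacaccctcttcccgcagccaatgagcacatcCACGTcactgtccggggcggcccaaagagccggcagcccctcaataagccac
Pgk1, chrX:106186850-106187099, plus strand: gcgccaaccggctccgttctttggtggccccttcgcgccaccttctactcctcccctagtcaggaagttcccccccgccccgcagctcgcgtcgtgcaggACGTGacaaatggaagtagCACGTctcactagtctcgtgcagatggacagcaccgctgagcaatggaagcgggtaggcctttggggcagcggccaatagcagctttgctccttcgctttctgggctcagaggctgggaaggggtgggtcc
Slc16a3 and Hk2 carry ACGTG only, Pdk1 and Aldoc GCGTG only, and Slc16a1 both, where 1 ACGTG overlaps its own copy on the other strand. Pgk1 carries ACGTG on each strand. Over 35 of the 36 listed genes, for which RefSeq lists a start, 27 hold at least 1 of the 2 motifs on either strand in this window (77.1%), against 38.6% of all 32851 listed promoters and 56.1% of 10279 other genes above the 40th percentile. The 38.6% is over every listed start, whereas the 77.1% and 56.1% take the first start of each gene. At the first start the motif was in all 5 of the members lower in LiPS-50, all 3 of those higher and 17 of the 23 other measured members with a listed start. The window of the second listed start of Pdk1 held 0 of either motif. The letters are a description of the window and not evidence that a factor binds there.

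Glucose enters through Slc2a1 and Slc2a3, the facilitated transporters of most growing cells and of cells with a high glucose demand. Slc2a1 had 11.86, 11.90 and 11.83 in the LiPS-45 cultures, 11.79, 11.79 and 11.80 in those of LiPS-57 and 11.91, 11.94 and 11.91 in those of LiPS-47, against 11.67, 11.69 and 11.66 in LiPS-50. All 3 LiPS-50 cultures were the lowest, by little: the differences were 0.19 for LiPS-45 (adjusted p = 0.021), 0.12 for LiPS-57 (adjusted p = 0.135) and 0.25 for LiPS-47 (adjusted p = 0.00466), and the call for LiPS-45 was lost when any of 4 cultures was left out. Slc2a3 had 12.002, 12.04 and 12.06 in the LiPS-45 cultures, 12.003, 11.99 and 11.996 in those of LiPS-57 and 12.07, 12.09 and 12.13 in those of LiPS-47, against 11.89, 11.94 and 11.94 in LiPS-50. Its groups did not overlap either, but only LiPS-47 passed the test, with a difference of 0.17 (adjusted p = 0.0384), and the call was lost when any of 11 of the 12 cultures was left out.

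Hexokinases trap glucose in the cell by phosphorylating it, and Hk2 is the form that HIF is known to induce. Hk2 had 10.18, 10.21 and 10.21 in the LiPS-45 cultures, 10.17, 10.12 and 10.15 in those of LiPS-57 and 10.32, 10.30 and 10.33 in those of LiPS-47, against 9.79, 9.80 and 9.87 in LiPS-50. The LiPS-50 cultures were the 3 lowest of the 12, and LiPS-47 was the highest line. Hk2 differed from LiPS-50 by 0.38, 0.33 and 0.50 in LiPS-45, LiPS-57 and LiPS-47 (SE 0.05, adjusted p = 0.000401, 0.00117 and 5.66e-05), or 1.26- to 1.41-fold.

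For Hk1, the constitutive hexokinase, the answer depends on the probe set. The brightest probe set had means of 12.62 ± 0.07 for LiPS-45, 12.55 ± 0.04 for LiPS-57 and 12.56 ± 0.07 for LiPS-47, against 12.59 ± 0.06 for LiPS-50 (SD, n = 3 each), with differences of 0.03, -0.04 and -0.02 that did not pass the test (adjusted p = 0.824, 0.781 and 0.869). By its number this probe set stands among genes of chromosome 14, and it names Hk1 through a record that other probe sets share with a ribosomal protein gene. The other Hk1 probe set, numbered among genes of chromosome 10 where Hk1 lies, had 7.33, 7.46 and 7.33 in the LiPS-45 cultures, 7.42, 7.45 and 7.32 in those of LiPS-57 and 7.51, 7.34 and 7.33 in those of LiPS-47, against 7.81, 7.74 and 7.97 in LiPS-50. There the LiPS-50 cultures were the 3 highest, with differences of -0.47, -0.44 and -0.44 (SE 0.08, adjusted p = 0.00167, 0.00249 and 0.002). On the probe set of its own chromosome Hk1 was higher in LiPS-50, where Hk2 was lower.

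Phosphofructokinase commits sugar to glycolysis and comes as the liver, muscle and platelet forms Pfkl, Pfkm and Pfkp. Pfkl had 10.08, 10.07 and 10.11 in the LiPS-45 cultures, 9.997, 10.02 and 10.04 in those of LiPS-57 and 10.23, 10.04 and 10.10 in those of LiPS-47, against 9.78, 9.89 and 9.89 in LiPS-50. Its LiPS-50 cultures were the 3 lowest, with differences of 0.23 for LiPS-45 (adjusted p = 0.0241), 0.17 for LiPS-57 (adjusted p = 0.101) and 0.27 for LiPS-47 (adjusted p = 0.0106), of which that for LiPS-45 lost its call when any of 4 cultures was left out. Pfkp went the other way, with 8.85, 8.88 and 8.91 in the LiPS-45 cultures, 8.92, 8.84 and 8.86 in those of LiPS-57 and 8.92, 8.88 and 8.80 in those of LiPS-47, against 9.04, 9.002 and 9.10 in LiPS-50, and passed for LiPS-47 only, at -0.18 (adjusted p = 0.0484). Its LiPS-50 cultures were the 3 highest, but the call was lost when any of 11 of the 12 cultures was left out, with the replicate number as a block and with median centring. Pfkm had 8.48 ± 0.06 for LiPS-45, 8.51 ± 0.05 for LiPS-57 and 8.50 ± 0.05 for LiPS-47, against 8.33 ± 0.10 for LiPS-50 (SD, n = 3 each) and passed in no comparison, at 0.15, 0.17 and 0.17.

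Aldolase splits the sugar, and Tpi1, triose phosphate isomerase, interconverts the products. The major form Aldoa lay within 0.07 of LiPS-50 in each line, at 12.25 ± 0.03 for LiPS-45, 12.27 ± 0.02 for LiPS-57 and 12.32 ± 0.01 for LiPS-47, against 12.32 ± 0.01 for LiPS-50 (SD, n = 3 each). The minor form Aldoc, best known from brain, had 7.11, 7.17 and 7.39 in the LiPS-45 cultures, 7.30, 7.35 and 7.30 in those of LiPS-57 and 7.32, 7.31 and 7.32 in those of LiPS-47, against 6.51, 6.40 and 6.68 in LiPS-50. It was lower in LiPS-50, by 0.69, 0.79 and 0.78 (SE 0.08, adjusted p = 0.00017, 8.06e-05 and 7.17e-05), or 1.62- to 1.73-fold, with no overlap between LiPS-50 and the rest. Tpi1 had 11.32, 11.31 and 11.36 in the LiPS-45 cultures, 11.21, 11.32 and 11.31 in those of LiPS-57 and 11.52, 11.42 and 11.32 in those of LiPS-47, against 11.13, 11.10 and 11.27 in LiPS-50. A culture of LiPS-57 overlapped LiPS-50, and only LiPS-47 passed, at 0.25 (adjusted p = 0.0258), a call lost when any of 4 cultures was left out.

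The later steps of the pathway went in both directions. Pgk1, the phosphoglycerate kinase that makes the first ATP of the pathway, had 11.77, 11.69 and 11.72 in the LiPS-45 cultures, 11.63, 11.63 and 11.65 in those of LiPS-57 and 11.63, 11.70 and 11.72 in those of LiPS-47, against 11.91, 11.94 and 11.95 in LiPS-50. It was higher in LiPS-50, where every culture exceeded all 9 others, with differences of -0.20, -0.29 and -0.25 (SE 0.05, adjusted p = 0.021, 0.00275 and 0.00631). The probe set used stands among genes of chromosome 12, and one among genes of chromosome 3 had the same values on the 12 arrays. The one numbered on the X chromosome had nearly the same means and passed in all 3 comparisons as well. With each array centred on its median, or with any of 4 cultures left out, the difference between LiPS-45 and LiPS-50 was no longer called.

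Pgam1, phosphoglycerate mutase, had 11.05, 11.13 and 11.09 in the LiPS-45 cultures, 11.12, 11.11 and 11.09 in those of LiPS-57 and 11.14, 11.12 and 11.12 in those of LiPS-47, against 10.89, 10.94 and 10.98 in LiPS-50. It was lowest in LiPS-50, without overlap, and the differences were 0.15 for LiPS-45 (adjusted p = 0.0665), 0.17 for LiPS-57 (adjusted p = 0.0458) and 0.19 for LiPS-47 (adjusted p = 0.0275). The call for LiPS-57 was lost when any of the 12 cultures was left out and with the replicate number as a block, and that for LiPS-47 when any of 5 cultures was left out. Its probe set numbered on its own chromosome 19 had differences of 0.19, 0.18 and 0.19 (adjusted p = 0.0313, 0.0437 and 0.0293), all past the threshold. A Pgam1 probe set among genes of chromosome 7 had the same values on the 12 arrays, so these values do not tell the places apart. Of the enolases, the muscle form Eno3 had 7.28, 7.19 and 7.25 in the LiPS-45 cultures, 7.38, 7.49 and 7.42 in those of LiPS-57 and 7.46, 7.46 and 7.41 in those of LiPS-47, against 7.02, 7.05 and 7.12 in LiPS-50. It was lowest in LiPS-50 and next lowest in LiPS-45, with differences of 0.18 for LiPS-45 (adjusted p = 0.0502), 0.37 for LiPS-57 (adjusted p = 0.00109) and 0.38 for LiPS-47 (adjusted p = 0.000681). The neuronal form Eno2 ran the other way, with 6.19, 6.17 and 6.05 in the LiPS-45 cultures, 6.34, 6.22 and 6.12 in those of LiPS-57 and 6.13, 6.05 and 5.81 in those of LiPS-47, against 6.36, 6.33 and 6.57 in LiPS-50. A culture of LiPS-57 lay among the LiPS-50 values, and Eno2 passed for LiPS-47 at -0.42 (adjusted p = 0.00915). Pkm, the pyruvate kinase of the last step, averaged 12.05 ± 0.03 for LiPS-45, 11.99 ± 0.02 for LiPS-57 and 11.97 ± 0.02 for LiPS-47, against 11.95 ± 0.07 for LiPS-50 (SD, n = 3 each) and passed in no comparison.

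All 4 genes that handle lactate were lower in LiPS-50 against both LiPS-45 and LiPS-47, and 2 of the 4 against LiPS-57 as well, where 8.3%, 7.31% and 7.48% of all probe sets were lower in LiPS-50. The calls of Ldha among them were each lost under 14 of the 22 alternatives tried. Slc16a3, the exporter of lactate in strongly glycolytic cells, had 9.38, 9.37 and 9.35 in the LiPS-45 cultures, 9.35, 9.47 and 9.39 in those of LiPS-57 and 9.42, 9.54 and 9.55 in those of LiPS-47, against 8.66, 8.79 and 8.71 in LiPS-50. All 3 LiPS-50 cultures lay below the 9 others. The differences were 0.65, 0.68 and 0.78 (SE 0.06, adjusted p = 2.33e-05, 1.96e-05 and 5.55e-06), or 1.57- to 1.72-fold. Slc16a1, the widely expressed transporter of lactate and pyruvate, had 9.95, 9.99 and 10.11 in the LiPS-45 cultures, 10.13, 10.11 and 10.10 in those of LiPS-57 and 10.06, 10.06 and 10.11 in those of LiPS-47, against 9.46, 9.60 and 9.63 in LiPS-50. LiPS-50 was again clear of the rest, by 0.45, 0.55 and 0.52 (SE 0.06, adjusted p = 0.000519, 0.000146 and 0.000207), or 1.37- to 1.47-fold.

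Lactate dehydrogenase interconverts pyruvate and lactate. Its A subunit, Ldha, had 12.54, 12.61 and 12.56 in the LiPS-45 cultures, 12.54, 12.60 and 12.47 in those of LiPS-57 and 12.58, 12.60 and 12.53 in those of LiPS-47, against 12.31, 12.42 and 12.41 in LiPS-50. LiPS-50 was lowest without overlap, and the differences of 0.19 for LiPS-45 (adjusted p = 0.0453), 0.16 for LiPS-57 (adjusted p = 0.0943) and 0.19 for LiPS-47 (adjusted p = 0.0457) lay near the threshold: the calls for LiPS-45 and LiPS-47 were each lost when any of 11 of the 12 cultures was left out. The B subunit, Ldhb, had 9.32, 9.37 and 9.22 in the LiPS-45 cultures, 9.11, 9.32 and 8.997 in those of LiPS-57 and 9.19, 9.33 and 9.45 in those of LiPS-47, against 9.004, 8.99 and 8.82 in LiPS-50. Its cultures spread more widely and LiPS-57 overlapped LiPS-50 in 1 culture, with differences of 0.36 for LiPS-45 (adjusted p = 0.0197), 0.20 for LiPS-57 (adjusted p = 0.197) and 0.38 for LiPS-47 (adjusted p = 0.0148). The call for LiPS-45 was lost when any of 3 cultures was left out, and that for LiPS-47 when either of 2 was.

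**Figure D3:**
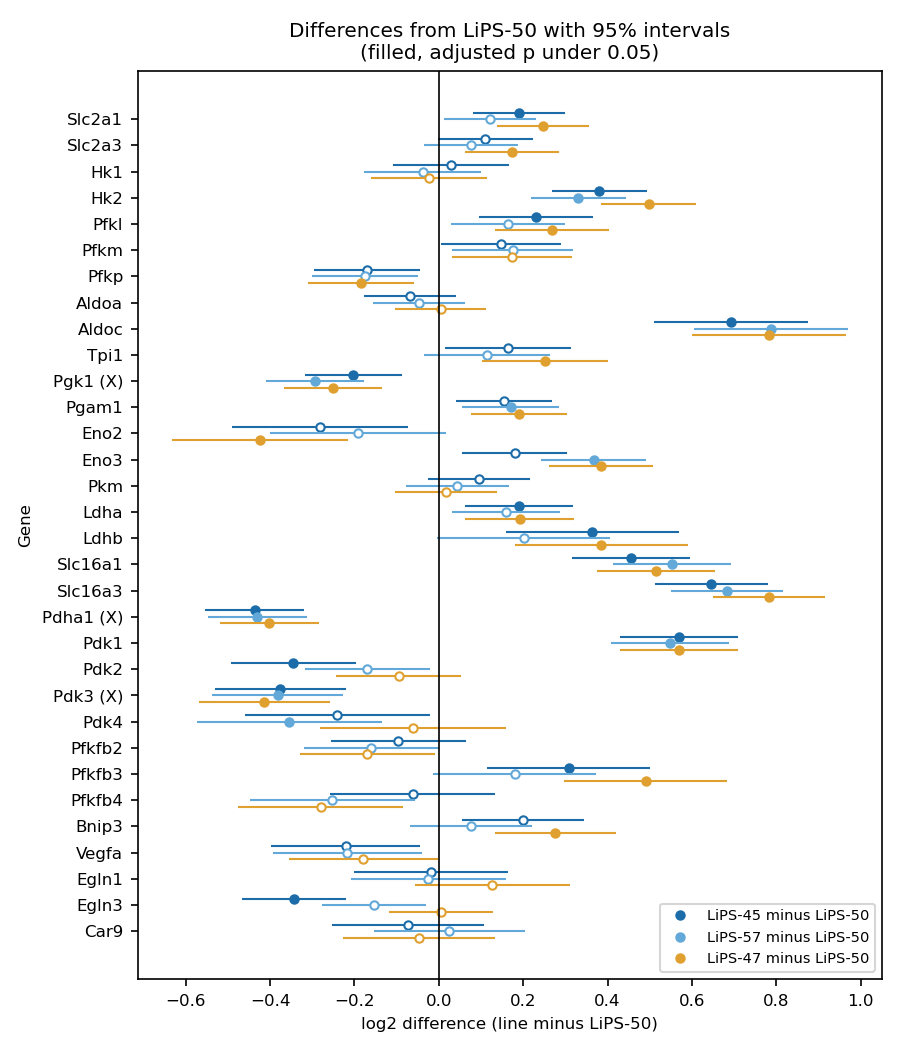
log2 difference of LiPS-45, LiPS-57 and LiPS-47 from LiPS-50 for each of the 32 members (rows), with 95% intervals from limma; filled points had an adjusted p under 0.05. Points right of 0 are lower in LiPS-50: Aldoc and Slc16a3 reach 0.79 and 0.78, while Pdha1, Pdk3 and Pgk1 lie left of 0 in all 3 comparisons.

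At the entry of pyruvate into the mitochondrion the members went in both directions. Pdha1, the E1 alpha subunit of pyruvate dehydrogenase, is X-linked and had 10.95, 11.004 and 11.03 in the LiPS-45 cultures, 11.02, 11.01 and 10.97 in those of LiPS-57 and 11.06, 11.01 and 11.02 in those of LiPS-47, against 11.39, 11.42 and 11.48 in LiPS-50. It was higher in LiPS-50, with differences of -0.44, -0.43 and -0.40 (SE 0.05, adjusted p = 0.000189, 0.000242 and 0.000347), with no overlap. Pdk1, a kinase that switches this enzyme off and a known HIF target, is autosomal and had 8.74, 8.67 and 8.79 in the LiPS-45 cultures, 8.79, 8.66 and 8.68 in those of LiPS-57 and 8.77, 8.68 and 8.74 in those of LiPS-47, against 8.12, 8.12 and 8.25 in LiPS-50. It was lower in LiPS-50, by 0.57, 0.55 and 0.57 (SE 0.06, adjusted p = 0.000104, 0.000153 and 0.000102), or 1.46- to 1.48-fold, and again no culture overlapped.

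The other kinases did not follow Pdk1. Pdk3, which is X-linked, had 8.90, 8.87 and 8.94 in the LiPS-45 cultures, 8.85, 9.0 and 8.84 in those of LiPS-57 and 8.95, 8.84 and 8.81 in those of LiPS-47, against 9.16, 9.32 and 9.36 in LiPS-50. It was higher in LiPS-50, with differences of -0.38, -0.38 and -0.41 (SE 0.07, adjusted p = 0.00349, 0.00334 and 0.00171). Pdk2 had 5.83, 5.86 and 6.02 in the LiPS-45 cultures, 6.07, 6.13 and 6.04 in those of LiPS-57 and 6.25, 6.08 and 6.12 in those of LiPS-47, against 6.20, 6.26 and 6.28 in LiPS-50. It was lowest in LiPS-45, which differed from LiPS-50 by -0.35 (adjusted p = 0.00437), and the cultures of LiPS-47 overlapped those of LiPS-50. Pdk4, the kinase known for its rise on fasting, was dim, with 5.72, 5.79 and 5.79 in the LiPS-45 cultures, 5.80, 5.74 and 5.42 in those of LiPS-57 and 5.98, 6.06 and 5.79 in those of LiPS-47, against 6.04, 6.07 and 5.91 in LiPS-50, and passed for LiPS-57 only, at -0.35 (adjusted p = 0.0323). That call was lost under 7 of the 22 alternatives, among them median centring and quantile normalization (adjusted p = 0.071 and 0.0751) and leaving out LiPS-57 replicate 3, at -0.24 (adjusted p = 0.113), or LiPS-50 replicate 1 or 2 (adjusted p = 0.0973 and 0.0977).

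The PFKFB enzymes make and remove the sugar bisphosphate that activates phosphofructokinase. Pfkfb3, the form with the strongest kinase activity, had 7.57, 7.53 and 7.52 in the LiPS-45 cultures, 7.49, 7.44 and 7.31 in those of LiPS-57 and 7.74, 7.84 and 7.60 in those of LiPS-47, against 7.32, 7.05 and 7.33 in LiPS-50. LiPS-47 was highest and LiPS-50 lowest, with 1 culture of LiPS-57 among the values of LiPS-50, and the differences were 0.31 for LiPS-45 (adjusted p = 0.0334), 0.18 for LiPS-57 (adjusted p = 0.227) and 0.49 for LiPS-47 (adjusted p = 0.00239). The call for LiPS-45 was lost when any of 4 cultures was left out. Pfkfb2 averaged 7.20 ± 0.03 for LiPS-45, 7.13 ± 0.13 for LiPS-57 and 7.12 ± 0.01 for LiPS-47, against 7.29 ± 0.09 for LiPS-50 (SD, n = 3 each). Pfkfb4 averaged 6.25 ± 0.11 for LiPS-45, 6.06 ± 0.13 for LiPS-57 and 6.04 ± 0.09 for LiPS-47, against 6.32 ± 0.13 for LiPS-50, and neither passed in a comparison with LiPS-50 (Pfkfb2 -0.10, -0.16 and -0.17, Pfkfb4 -0.06, -0.25 and -0.28).

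The genes best known from the response to hypoxia itself did not move as a block. Bnip3, a mediator of mitophagy, had 8.96, 9.0 and 9.03 in the LiPS-45 cultures, 8.93, 8.81 and 8.88 in those of LiPS-57 and 8.98, 9.14 and 9.10 in those of LiPS-47, against 8.70, 8.84 and 8.85 in LiPS-50, with LiPS-57 overlapping LiPS-50, and passed for LiPS-47 at 0.28 (adjusted p = 0.0129), a call lost without LiPS-47 replicate 2 or LiPS-50 replicate 1. Its probe set numbered among genes of its own chromosome 7 gave 0.09, -0.04 and 0.28, with LiPS-47 again the only line past the threshold (adjusted p = 0.0481). Egln3, a prolyl hydroxylase that HIF itself induces, had 7.24, 7.27 and 7.25 in the LiPS-45 cultures, 7.45, 7.51 and 7.37 in those of LiPS-57 and 7.62, 7.59 and 7.59 in those of LiPS-47, against 7.65, 7.60 and 7.54 in LiPS-50. LiPS-45 was the lowest line for Egln3, with a difference from LiPS-50 of -0.34 (adjusted p = 0.00155), while LiPS-47 and LiPS-50 overlapped, with a difference of 0.0057.

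Vegfa, the angiogenic growth factor, had 8.03, 8.08 and 7.81 in the LiPS-45 cultures, 7.95, 8.08 and 7.89 in those of LiPS-57 and 8.002, 8.08 and 7.95 in those of LiPS-47, against 8.26, 8.15 and 8.17 in LiPS-50. Its LiPS-50 cultures were the 3 highest, but the differences of -0.22, -0.22 and -0.18 did not pass (adjusted p = 0.0898, 0.0981 and 0.179). Egln1, the main prolyl hydroxylase of HIF, averaged 7.55 ± 0.07 for LiPS-45, 7.54 ± 0.12 for LiPS-57 and 7.70 ± 0.12 for LiPS-47, against 7.57 ± 0.10 for LiPS-50 (SD, n = 3 each), and passed nowhere. Car9, carbonic anhydrase IX, among the strongest HIF targets known, was the dimmest member, at percentile 29.7 of probe set means. It had 4.57 ± 0.16 for LiPS-45, 4.67 ± 0.09 for LiPS-57 and 4.60 ± 0.08 for LiPS-47, against 4.64 ± 0.03 for LiPS-50. Car9 differed from LiPS-50 by at most 0.07 in size. Of the 5 hypoxia genes, 1 was lower in LiPS-50 by the comparison with LiPS-47 and 1 was higher in LiPS-50 by that with LiPS-45. That is 20% in each, near the 15.8% and 16.5% of all probe sets and below the 26.1% and 26.6% of the brighter genes that differed in these comparisons.

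The 3 X-linked members went in the direction of most X-linked genes. Among 410 other X-linked genes above the 40th percentile, 242 were lower in LiPS-45 than in LiPS-50, as were 262 for LiPS-57 and 255 for LiPS-47, and the median differences were -0.33, -0.37 and -0.38. Among 12478 autosomal genes above that level, the medians were 0.0065, 0.010 and 0.015. The differences of Pdha1 and Pdk3, between -0.38 and -0.44, were close to the X-linked medians, and those of Pgk1, between -0.20 and -0.29, were smaller in size. Of the 29 autosomal members, 10 were higher and 2 lower in LiPS-45 than in LiPS-50 (34.5% and 6.9%, against 13.7% and 11.6% of those autosomal genes). For LiPS-57 these were 7 and 1 (24.1% and 3.45%, against 13.1% and 11.3%), and for LiPS-47 they were 15 and 2 (51.7% and 6.9%, against 12.6% and 12.2%). The part of the X chromosome in the values of Pdha1, Pdk3 and Pgk1 was not tested.

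**Figure D4:**
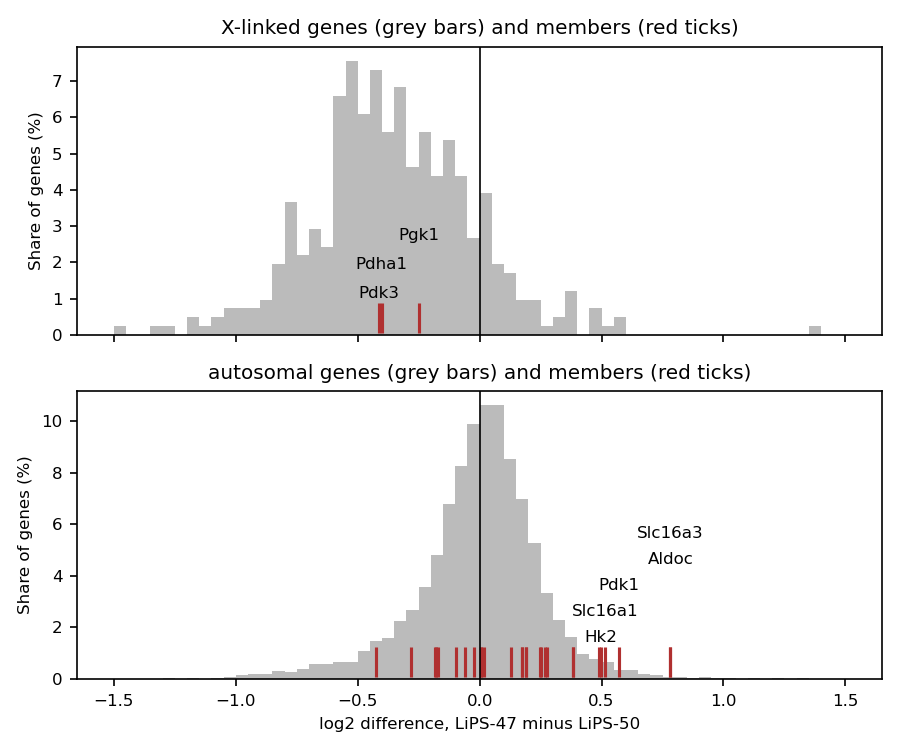
Distribution of the log2 difference of LiPS-47 from LiPS-50 (x axis) over the X-linked genes (upper panel, grey bars, share of 410 genes) and the autosomal genes (lower panel, share of 12478 genes) above the 40th percentile, with the members above that level as red ticks. The X-linked genes have a median of -0.38 and the ticks of Pdha1, Pdk3 and Pgk1 lie left of 0, while the autosomal genes have a median of 0.015 and most member ticks lie right of 0; Car9, below that level, is left out.

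Among the other 3 lines, and between the competence classes, no member passed. LiPS-45 and LiPS-47, LiPS-57 and LiPS-47, and LiPS-45 and LiPS-57 differed in 0 of the 32 members by limma at an adjusted p under 0.05 (background 0.0622%, 0.159% and 0.266% of probe sets). At an unadjusted p under 0.05 the counts were 6, 7 and 3 of the 32, against 8.93%, 6.89% and 8.01% of probe sets. The share of members was above that background in both pairs with LiPS-47 and near it between LiPS-45 and LiPS-57. Members differed by -0.35 to 0.22, by -0.31 to 0.23 and by -0.19 to 0.19 in these pairs. The value nearest the threshold was that of Egln3, at -0.35 between LiPS-45 and LiPS-47 (adjusted p = 0.057), with 95% limits of -0.47 and -0.22, and it was called under 4 of the alternatives tried.

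Competence was tested between the competent lines, LiPS-45 and LiPS-57, and the others, LiPS-47 and LiPS-50. With the line as a random block 0 of the 32 members differed (limma, background 0% of probe sets). At an unadjusted p under 0.05 it was 6 of the 32, a larger share than the background of 7.69%. The median difference over members was 0.0033. Aldoc had the largest positive difference, 0.35 (SE 0.16, adjusted p = 0.651), with LiPS-47 on the side of the competent lines. Egln3, at -0.25 (SE 0.06, adjusted p = 0.648), lay lower in all 6 competent cultures than in the 6 others. So did Aldoa, at -0.06 (adjusted p = 0.749), which makes 2 of 32 members below without overlap (6.25%, against 0.321% of probe sets) and 0 above (against 0.48%). With the spread between cultures as the only error, 8 members passed (25%, against 6.18% of all probe sets), of which the competent lines had 4 higher and 4 lower, but that error leaves out the spread between lines of a class.

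Other genes of the pathway, from lists that hold none of the members, went in both directions. Of 27 measured genes of sugar handling outside the main route, 5, 3 and 5 differed from LiPS-50 in LiPS-45, LiPS-57 and LiPS-47 (18.5%, 11.1% and 18.5%, against 16.5%, 15.6% and 15.8% of all probe sets). Of the brighter genes, 26.6%, 25.8% and 26.1% differed. The 3 sugar handling genes with the smallest p over the lines were Fbp2, G6pc3 and Tigar. Fbp2, a fructose bisphosphatase, differed from LiPS-50 by -0.60, -0.66 and -0.40 in LiPS-45, LiPS-57 and LiPS-47 (adjusted p = 0.00493, 0.0029 and 0.0391). Fbp2 was dim, with means of 4.636, 4.573 and 4.830 in these lines and 5.235 in LiPS-50, where the 40th percentile was 5.2147. G6pc3, a glucose phosphatase, differed by -0.50, -0.26 and -0.38 (adjusted p = 0.00385, 0.0928 and 0.0194). Tigar, a phosphatase that opposes PFKFB enzymes, differed by 0.10, 0.24 and 0.28 (adjusted p = 0.382, 0.031 and 0.0134). Of 7 genes of the pentose phosphate pathway, which draws on glucose phosphate for NADPH and ribose, 2 differed in each comparison (28.6%), Pgd and H6pd, both higher in LiPS-50. That share was above the 16.5%, 15.6% and 15.8% of all probe sets and near the 26.6%, 25.8% and 26.1% of the brighter genes. Pgd, an NADPH-forming dehydrogenase, gave -0.33, -0.27 and -0.22 (adjusted p = 0.00197, 0.00619 and 0.0203). H6pd, a dehydrogenase of the endoplasmic reticulum, gave -0.48, -0.45 and -0.59 (adjusted p = 0.00417, 0.00675 and 0.00101).

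On the mitochondrial side, 2, 3 and 3 of 9 genes differed from LiPS-50 in LiPS-45, LiPS-57 and LiPS-47 (22.2%, 33.3% and 33.3%, against 16.5%, 15.6% and 15.8% of all probe sets). Of the brighter genes, 26.6%, 25.8% and 26.1% differed. Pdp2, the phosphatase that undoes the action of the pyruvate dehydrogenase kinases, was lower in LiPS-50, by 0.61, 0.51 and 0.58 (adjusted p = 0.00146, 0.00466 and 0.00173). Dlat, the E2 subunit of the enzyme, gave 0.10, 0.32 and 0.24 (adjusted p = 0.404, 0.00788 and 0.0322). The probe set of Mpc1, a subunit of the mitochondrial pyruvate carrier, was higher in LiPS-50, with differences of -0.33, -0.36 and -0.35 (adjusted p = 0.00687, 0.00456 and 0.00468). Mpc1 lies on chromosome 17, but this probe set is numbered between those of Egln3 on chromosome 12 and Pfkp on chromosome 13. Whether it measures Mpc1 itself was not tested.

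Of 10 regulators of the HIF pathway, 1, 2 and 1 differed from LiPS-50 in LiPS-45, LiPS-57 and LiPS-47 (10%, 20% and 10%, near the 16.5%, 15.6% and 15.8% of all probe sets). Epas1, which encodes HIF-2 alpha, passed in each, at -0.29, -0.30 and -0.31 (adjusted p = 0.0373, 0.0315 and 0.0272), higher in LiPS-50. These comparisons share the LiPS-50 arrays, and 0 of the 10 regulators, Epas1 included, passed the F-test over the 4 lines. Hif3a, whose product can restrain the other HIF proteins, gave 0.17, 0.29 and 0.22 and passed for LiPS-57 only (adjusted p = 0.223, 0.0373 and 0.113). Arnt, the partner of the HIF alpha subunits, gave 0.18, 0.12 and 0.16 and passed in none (adjusted p = 0.0521, 0.209 and 0.0828). Of 22 further HIF targets, 9 differed between LiPS-45 and LiPS-50, 3 higher and 6 lower in LiPS-45 (40.9%, against 16.5% of all probe sets). For LiPS-57 they were 7, 2 higher and 5 lower (31.8%, against 15.6%), and for LiPS-47 they were 13, 5 higher and 8 lower (59.1%, against 15.8%). The shares of the brighter genes in these comparisons were 26.6%, 25.8% and 26.1%. Slc6a8, a creatine transporter on the X chromosome, was higher in LiPS-50, with differences of -1.16, -1.13 and -1.32 (adjusted p = 1.74e-05, 2.84e-05 and 6.43e-06). Ak4, a mitochondrial adenylate kinase, was lower in LiPS-50, by 0.24, 0.33 and 0.41 (adjusted p = 0.0155, 0.00235 and 0.000504). Stc2, a secreted glycoprotein, gave 0.44, 0.21 and 0.48 (adjusted p = 0.00172, 0.0886 and 0.000894). The fibroblast markers above were higher in LiPS-50 in the same comparisons, and their part in these counts was not tested.

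**Figure D5:**
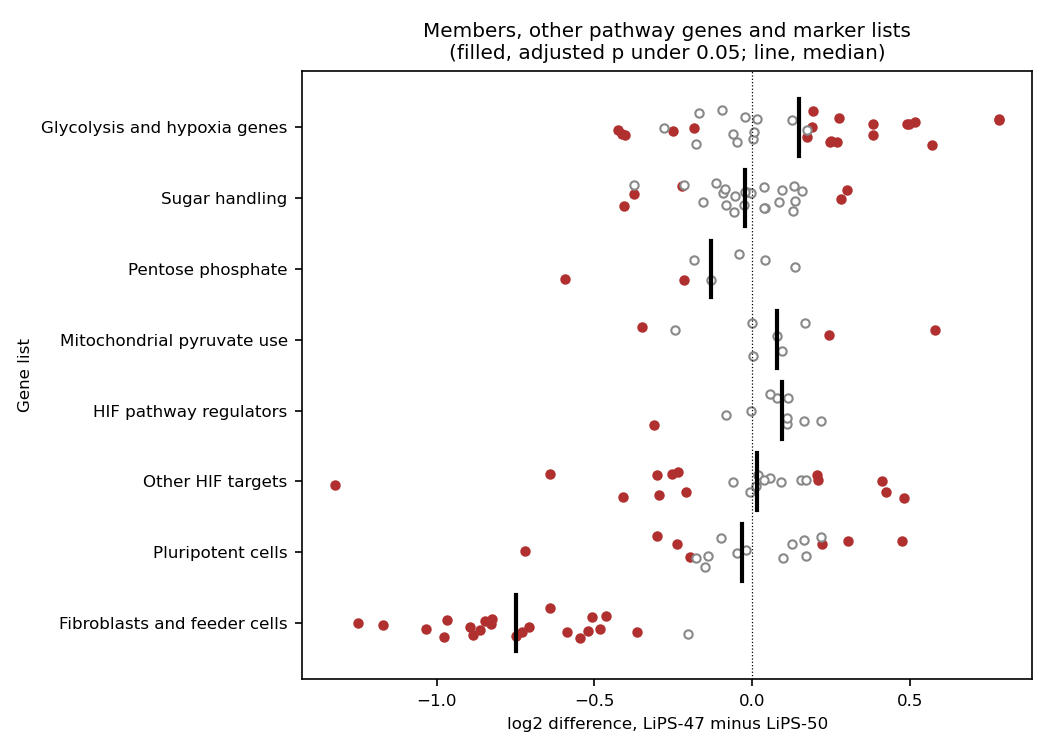
log2 difference of LiPS-47 from LiPS-50 (x axis) for each gene (points) of the glycolysis and hypoxia genes, the other pathway lists and the marker lists (rows), filled where the adjusted p was under 0.05, with the median of each list as a line. The members have a median of 0.15, the fibroblast and feeder markers one of -0.75, and the other HIF targets lie on both sides of 0 with a median of 0.015.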

How the data were processed

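The authors deposited a linear intensity for each probe set on each array, made with GCOS 1.4 per the submitters' processing notes. How probes were summarised, background-corrected and normalized is not given in the sources used here. Over the 12 arrays the quartiles of the log2 values computed from the deposited intensities differed by at most 0.0954, so the scale was kept, and each value became log2(value + 1). Values ran from 3.06 to 16531, and no 2 arrays shared more than 0.607% of identical values. The number of arrays limits the precision.

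Of 35556 probe sets, 6617 with numbers below the lowest annotated one were taken as controls and left out, a choice made with the data known. Of the 28939 tested, 21789 name 1 gene, 1621 several and 5529 none. A gene is represented by its brightest probe set. RefSeq's table for GRCm38.p6 gave chromosomes and symbols for 19853 of 19938 genes. For the members only, where a probe set lies was read from the 10 annotated neighbours in number on each side. For 4 members, Hk1, Pgk1, Pgam1 and Bnip3, the brightest one stood among genes of another chromosome.

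Lines were compared with limma 3.58.1 in R 4.3.3, two-sided, with 4 line means over all 12 arrays, 8 residual and 4.06 prior degrees of freedom, and Benjamini-Hochberg adjustment over the 28939 probe sets with a threshold of 0.05. For competence the fit took the line as a random block (consensus correlation 0.183). The tests were tried on simulated data. The members and lists were chosen with earlier results of these data known. All members may be named, and in each other pathway list up to 3 genes with the smallest p over the lines, beside 7 defining markers of cell types. Tried as alternatives were a block for the replicate number, median centring, quantile normalization, a filter at the 40th percentile, inclusion of the control probe sets, a pseudocount of 16, only the lines of a pair, the mean over a gene's probe sets, a trend in the prior variance, leaving out each culture, and, added after seeing the data, the probe set of the gene's own chromosome.

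The replicate numbers did not pair the cultures: deviations from the line means correlated between -0.17 and 0.12 over 18 pairs of the same number (median 0.012) and between -0.18 and 0.20 over 36 other pairs (median 0.0052).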

Additional observations from a re-analysis of the deposited data

How the results depend on the processing

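The calls with the largest differences did not depend on the settings tried. Of 46 called differences between a line and LiPS-50, each under 22 alternatives, 891 of 1012 repeats kept the call, 121 lost it and 0 turned the sign, and 30 of the 46 kept it throughout. The repeats are not independent. Except for Hk1, Pgk1, Pgam1 and Bnip3, the own-chromosome alternative used the same probe set and fit, so it kept the call by construction. The filter, the replicate block, the control probe sets, the trend and the fit of only the 2 lines left each difference as it was. So did leaving out a culture of a line outside the pair, and, for the 26 members with 1 probe set, the mean over probe sets. In these the sign could not turn. Slc16a3, Slc16a1, Pdk1, Aldoc, Hk2, Pdha1 and Pdk3 kept all their calls, while Pgk1 lost that against LiPS-45 under 6 alternatives, with a highest adjusted p of 0.0859. Ldha, Slc2a3 and Pfkp lost each of their calls under 14 or 15 alternatives, as did Pgam1 for LiPS-57. The number of members that differed in all 3 comparisons, 8, was 13 with the filter at the 40th percentile, 14 with a pseudocount of 16 and 13 with a trend in the prior variance. For LiPS-57 against LiPS-50 the filter gave 17 members in place of 11, and for LiPS-47 against LiPS-50 a fit of only the 2 lines gave 13 in place of 20. Between LiPS-45 and LiPS-47, 1 member in place of 0, Egln3, passed with quantile normalization, the filter, a pseudocount of 16 or the trend. For competence, 8 passed in place of 0 with the spread between cultures as the only error, under which 6.18% of all probe sets passed. The cause of these changes was not tested.

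Leaving out each culture in turn gave 11 to 17 members over the 4 lines, 9 to 15 for LiPS-45 against LiPS-50, 9 to 10 for LiPS-57, 14 to 18 for LiPS-47, 7 to 8 in all 3, and 0 elsewhere. The 11 came without LiPS-50 replicate 2 or 3 and the 9 for LiPS-45 without LiPS-45 replicate 2. With the replicate number as a block the counts were 15 over the 4 lines, 15, 10 and 18 against LiPS-50, 8 in all 3, and 0 elsewhere. The probe set of the gene's own chromosome gave 17, then 17, 12 and 21, and 10 in all 3, among them Hk1 and Pgam1.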

Other observations

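The members on chromosome 6 did not share a direction. It holds 6 of the measured members. Of these Slc2a3, Hk2, Tpi1 and Ldhb were lower in LiPS-50 than in LiPS-47, Eno2 was higher, and Pdk4 did not pass in that comparison. There 15.8% of all probe sets and 26.1% of the brighter genes differed. The calls of Slc2a3, Tpi1 and Ldhb were lost under 14, 5 and 2 of the 22 alternatives.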
